A study of Mus musculus with 24 samples.

Results

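The response to granulocyte-macrophage colony-stimulating factor (GM-CSF) was measured over all genes in eosinophils labelled as knockouts of Csf2ra, the gene of its receptor's own chain, in 6 of the 24 libraries of the series. The 6 were chosen by genotype and treatment alone: 3 libraries of GM-CSF-treated cells labelled CSF2ra-/- and 3 of untreated cells with the same label (Csf2ra-/- from here). Eosinophils were grown from bone marrow of C57BL/6 mice, first with 100 ng/ml each of FLT3 ligand and SCF and, after day 4, with 10 ng/ml of interleukin 5 (IL-5). At day 13 dead cells were removed, and the cells were kept overnight in IL-5 with or without GM-CSF at 20 ng/ml. The wild-type (WT) groups used beside them, 3 untreated and 3 GM-CSF libraries, were made in the same way, so all 4 groups had IL-5 from the change of medium after day 4 onwards. The labels give neither the age of the mice nor the part of Csf2ra that was deleted. Nor do they tell whether the triplicates were separate animals or cultures, so p-values measure only spread between libraries, which may be technical. That spread was estimated over all 24 libraries of the series, not over the 6 Csf2ra-/- libraries alone.

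GM-CSF binds a receptor made of a chain of its own, the product of Csf2ra, and a signalling chain that it shares with IL-5 and interleukin-3, the product of Csf2rb. The assembled receptor activates the kinase JAK2 and the transcription factor STAT5, together with the ERK and PI3 kinase pathways. In eosinophils GM-CSF is known for prolonging survival and for priming the cells to make cytokines and chemokines, and a cell without the receptor's own chain serves as the control for whether an effect of added GM-CSF passes through it.

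One stretch of sequence is given, from a gene followed here. Ccl17, which encodes a chemokine for T cells that carry CCR4, had the smallest p for a difference between the genotypes in its response to GM-CSF. The 250 bases before its start, at chr8:94810203-94810452 on the plus strand of GRCm38.p6 (RefSeq), are given with a match to the STAT-type motif TTCNNNGAA in capitals.

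Ccl17: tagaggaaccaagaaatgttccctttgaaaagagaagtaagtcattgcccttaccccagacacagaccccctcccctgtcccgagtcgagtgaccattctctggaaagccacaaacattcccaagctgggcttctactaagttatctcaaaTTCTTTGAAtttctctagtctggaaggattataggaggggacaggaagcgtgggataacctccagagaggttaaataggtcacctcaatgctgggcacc

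The match, TTCTTTGAA, begins 99 bases before the start, and the pattern reads the same on both strands. Of 27025 genes with such a 250-base stretch, 8.13% hold the motif. Among those that could be looked up, 1 of 37 genes raised by GM-CSF in WT (2.7%) holds it, and 2 of 13 lowered ones (15.4%). The raised gene is Ccl17, so its match is not typical of the genes followed. A match describes letters only.

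Library totals of the 6 ranged from 8637672 counts in untreated replicate 1 to 18005535 in GM-CSF replicate 1, with 12910 to 14558 genes that had a count. Over all 24 libraries totals ranged from 6222979 to 18709153. Replicate numbers follow accession order and serve as names. Levels are CPM, counts scaled to a common library total with edgeR's TMM factors. A gene is called where edgeR's quasi-likelihood test gave a Benjamini-Hochberg adjusted p under 0.05 over 11885 genes.

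The libraries were checked against their label through the receptor's own gene. Csf2ra was counted at 29.9, 28.5 and 38.4 CPM in the untreated and at 38.1, 39.8 and 38.3 CPM in the treated libraries of Csf2ra-/- cells. In WT it was at 53.4, 56.5 and 59.2 CPM without GM-CSF and 58.7, 83.8 and 74.0 CPM with it, so all 6 Csf2ra-/- libraries lay under all 6 WT libraries, and none was near 0. A count per gene sums reads over all exons and does not show whether a deleted exon is missing. Eosinophil identity was clear in all 6. Prg2, the gene of major basic protein, was at 39100 to 65200 CPM, Epx, the gene of eosinophil peroxidase, at 17800 to 20800 CPM, and the summed granule genes at 77700 to 110000 CPM. Of the markers of other cell types, Cd163 of macrophages, Cd3e and Ncr1 of lymphocytes, and Mcpt4 of mast cells had no count in any of the 6, but most markers on those lists were counted. The summed lists reached 2120 to 2800 CPM for monocytes and macrophages, 1330 to 1720 CPM for neutrophils, 1370 to 1610 CPM for megakaryocytes and platelets, 665 to 912 CPM for mast cells and basophils and 112 to 146 CPM for lymphoid cells. In WT the same sums were 2440 to 2770, 1770 to 2070, 1060 to 1350, 498 to 662 and 99.9 to 142 CPM. Dendritic cell markers summed to 31.0 to 40.7 CPM in Csf2ra-/- and 56.3 to 105 CPM in WT. The neutrophil, megakaryocyte, mast cell and dendritic cell ranges did not overlap between the genotypes. Their part in the genes followed was not tested.

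Spread between libraries bears on every value that follows, and the third library of each group stood apart. Among the 9329 genes with a mean of at least 5 CPM, the third libraries lay above the other 4 for 1644 genes (17.6%) and below them for 2068 (22.2%). Deviations from the group means, taken on log2(CPM + 1), had a Pearson correlation of 0.84 across genes between untreated replicate 3 and GM-CSF replicate 3, against -0.78 to 0.50 for the other 8 pairs across the groups. Genes are not independent replicates, and these correlations describe the 6 libraries. The counts of calls in Csf2ra-/- and in the difference from WT were also computed without the third libraries, and where that changes a call the value is given.

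GM-CSF changed the expression of no gene in Csf2ra-/- eosinophils past the threshold. Of 11885 genes, 0 were called by edgeR's quasi-likelihood test (0.0%), while 531 had an unadjusted p under 0.05 (4.47%), 196 of them higher (1.65%) and 335 lower (2.82%) with GM-CSF. DESeq2 called 0 genes, with 517 at an unadjusted p under 0.05, and limma-voom called 0, with 432. In WT the same fit called 66 genes (0.555%), 49 raised (0.412%) and 17 lowered (0.143%), and the difference of the 2 effects was called for 7 genes (0.0589%), 1 of them higher in Csf2ra-/- than in WT (0.00841%) and 6 lower (0.0505%). Leaving out the third libraries also gave 0 calls (618 at an unadjusted p under 0.05). A fit of the Csf2ra-/- groups by themselves gave 0 calls too, with 40 genes at an unadjusted p under 0.05. The exception was the fit without untreated replicate 2, which called 29 genes, with 2542 at an unadjusted p under 0.05. That fit is described with the spread.

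The 66 genes called in WT were followed in Csf2ra-/-. Their contrast compares WT libraries alone, but the filter on low counts and the estimate of spread behind the calls came from all 24 libraries. A fit of the 2 WT groups by themselves called 63 genes, 51 of them among the 66. Over the 49 genes raised in WT, the median log2 fold change was 1.63 in WT and 0.04 in Csf2ra-/-, where 28 lay above 0 and 21 below. Over the 17 lowered genes the medians were -1.49 and -0.04, with 7 above 0 and 10 below in Csf2ra-/-. Apart from Dusp1, Zfp36, Egr1 and Fos, the lowered genes had every untreated Csf2ra-/- library under every untreated WT library. Cd28, for example, was at 0.987, 1.59 and 0.591 CPM in untreated Csf2ra-/- and 6.08, 6.29 and 5.61 CPM in untreated WT. The part of these lower starting levels in the median of -0.04 was not tested. The median of all genes tested in Csf2ra-/- was -0.01, with 47.9% above 0. All 66 changed less in Csf2ra-/- than in WT, which their choice in WT favours.

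With the spread estimated over all 24 libraries, precision allowed a statement for most single genes. Intervals from the Csf2ra-/- libraries alone are not given. For 63 of the 66 a 95% interval could be fitted in Csf2ra-/-, reaching a median of 0.66 to either side on the log2 scale, and 61 of these intervals left out the WT estimate. The WT estimate is taken there without its own error, and it was selected for being far from 0. The other 3 genes, Plet1, Rbp4 and Alpk2, had a group without a single count.

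**Figure D1:**
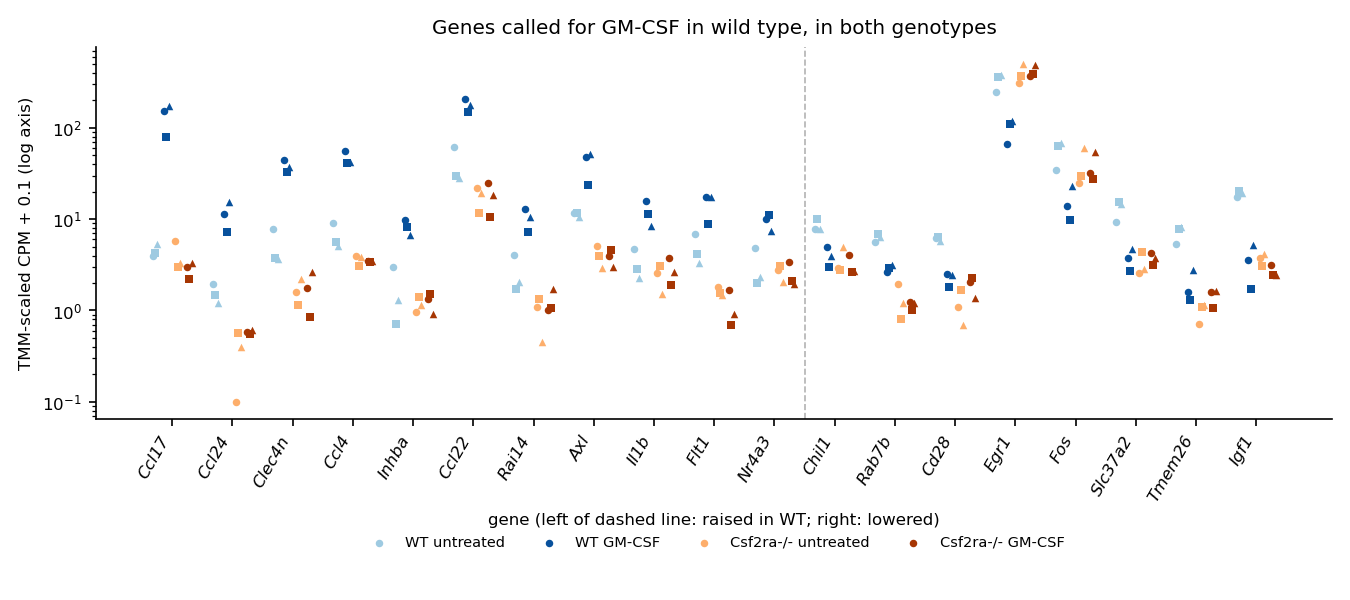
TMM-scaled CPM plus 0.1 (log axis) of 19 genes called in WT, in the 12 libraries of the 4 groups, with circles, squares and triangles for replicates 1, 2 and 3. Blue GM-CSF points leave their untreated points, as for Ccl17 with 79.6 to 174 CPM against 3.85 to 5.31, while the orange and brown points of Csf2ra-/- lie among each other, at 2.11 to 5.67 CPM for Ccl17. The genes are the 12 largest rises and 8 largest falls among called genes with a mean of at least 5 CPM in a WT group. Genes with overlapping WT groups and predicted gene models were left out before ranking. Plet1, one of the rises, is not shown, and had no count in any GM-CSF library of Csf2ra-/- cells.

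Chemokine genes were among those raised in WT, and none was called in Csf2ra-/-. Ccl17 was at 5.67, 2.89 and 3.25 CPM without GM-CSF and 2.86, 2.11 and 3.25 CPM with it in Csf2ra-/- cells. In WT it went from 3.85, 4.13 and 5.31 CPM to 153, 79.6 and 174 CPM. The Csf2ra-/- groups overlapped and the WT groups did not: the log2 fold change was -0.43 ± 0.50 (SE, 95% interval -1.47 to 0.62) against 4.93 ± 0.42. The difference of the effects, -5.36 ± 0.64, passed its own test (edgeR's quasi-likelihood test, adjusted p = 0.00089), and it did so under every alternative run.

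Ccl4, which encodes an inflammatory chemokine, gave a similar picture. Its Csf2ra-/- libraries stood at 3.82, 3.00 and 3.73 CPM without GM-CSF and 3.40, 3.31 and 3.40 CPM with it, in a range narrower than that of the WT untreated libraries at 8.95, 5.51 and 5.01 CPM. WT libraries with GM-CSF held 56.0, 41.6 and 41.9 CPM. The difference of effects was -2.87 ± 0.40 (edgeR's quasi-likelihood test, adjusted p = 0.00166); without the third Csf2ra-/- libraries of both groups it was -2.80, with an adjusted p of 0.0505. Ccl22, which encodes the other ligand of CCR4, was at 22.0, 11.7 and 19.2 CPM without GM-CSF and 24.5, 10.4 and 18.3 CPM with it in Csf2ra-/-. Ccl22 was higher in every untreated WT library, at 61.9, 29.7 and 28.4 CPM, and at 209, 151 and 179 CPM in WT with GM-CSF. Its fold change in Csf2ra-/- was 0.04 ± 0.37 (95% interval -0.73 to 0.82) and 2.16 ± 0.35 in WT, and the difference of -2.12 ± 0.51 was not called (edgeR's quasi-likelihood test, adjusted p = 0.263). Of the 12 chemokine genes tested, 6 were raised in WT, against 0.412% of all genes, and the Csf2ra-/- median was -0.05. With 0 of 11885 genes called in Csf2ra-/-, 0 calls on this or any other list add nothing further.

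Surface and secreted products of the WT response gave the next set. Clec4n, the gene of the fungal pattern receptor dectin-2, was at 1.48, 1.06 and 2.13 CPM without GM-CSF and 1.68, 0.752 and 2.51 CPM with it in Csf2ra-/-. In WT it was at 7.78, 3.7 and 3.59 CPM without GM-CSF and 32.9 to 43.9 CPM with it. All Csf2ra-/- libraries thus lay under the untreated WT libraries too. Car4, which encodes a membrane-bound carbonic anhydrase, was at 98.2, 78.6 and 103 CPM without GM-CSF and 74.2, 75.8 and 92.4 CPM with it in Csf2ra-/-. Spp1, the gene of the secreted matrix protein osteopontin, was at 96.3, 65.7 and 86.5 CPM and at 80.1, 63.0 and 76.0 CPM. All 3 genes had overlapping groups in Csf2ra-/-, and the levels of Car4 and Spp1 show that the genes were well expressed there. Untreated WT libraries were at 76.3 to 107 CPM for Car4 and 64.8 to 106 CPM for Spp1, overlapping the Csf2ra-/- values.

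Fold changes in Csf2ra-/- were 0.07 ± 0.41 for Clec4n, -0.21 ± 0.17 for Car4 and -0.18 ± 0.19 for Spp1. The differences from WT were -2.82 ± 0.50 for Clec4n (adjusted p = 0.0266), -1.71 ± 0.24 for Car4 (adjusted p = 0.00166) and -1.49 ± 0.27 for Spp1 (adjusted p = 0.03, all by edgeR's quasi-likelihood test). Car4 was called under every alternative run. Without the third libraries the difference was -2.81 for Clec4n and -1.48 for Spp1, and neither was called, as in several fits that left out another library.

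Some cytokine genes were raised in WT, and none was called in Csf2ra-/-. Il1b, which encodes interleukin-1 beta, was at 2.47, 2.95 and 1.42 CPM without GM-CSF and 3.67, 1.81 and 2.51 CPM with it, a fold change of 0.26 ± 0.38 against 1.87 ± 0.33 in WT. Il13, the gene of the type 2 cytokine interleukin-13, was at 6.41, 4.59 and 5.91 CPM and at 6.54, 5.49 and 7.39 CPM, a fold change of 0.22 ± 0.23 (95% interval -0.25 to 0.68) against 1.53 ± 0.22. Tnf was at 25.8 to 29.3 CPM in all 6 libraries, where WT rose by 0.56 ± 0.12. Of 9 inflammatory cytokine genes tested, 3 were raised in WT (0.412% of all genes) and 0 were called in Csf2ra-/-, as over all genes. None of the differences for Il1b, Il13 and Tnf was called (edgeR's quasi-likelihood test, adjusted p of 0.654, 0.233 and 0.494).

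Genes nearly silent without the response stayed close to their counting limit. Plet1, a surface protein gene, held 7, 3 and 0 counts in the untreated and 0, 0 and 0 in the GM-CSF libraries of Csf2ra-/- cells, against 844, 288 and 984 counts in WT with GM-CSF. A count of 0 over the 3 GM-CSF libraries allows a level of up to 0.0673 CPM (3 counts over the group, covering counting error only). Rbp4, the gene of a retinol carrier, had 0, 0 and 0 counts untreated and 0, 0 and 1 with GM-CSF, where WT with GM-CSF had 24, 21 and 16. Alpk2, a kinase gene, had 0, 0 and 0 counts and 1, 0 and 0, where WT with GM-CSF had 40, 25 and 28. No interval could be fitted for these genes in Csf2ra-/-, and the libraries at 1 count or fewer show no response of the WT size.

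Immediate early genes were among those lowered in WT. Egr1, a transcription factor gene induced within minutes by ERK signalling, was at 308, 366 and 502 CPM without GM-CSF and 370, 391 and 493 CPM with it in Csf2ra-/-. WT fell from 244, 364 and 378 CPM to 67.3, 110 and 118 CPM. The highest library of each Csf2ra-/- group was the third, and the groups overlapped, with a fold change of 0.09 ± 0.21 (95% interval -0.35 to 0.53). The difference of effects was 1.84 ± 0.30 (edgeR's quasi-likelihood test, adjusted p = 0.0108) and lost its call in some fits without a single library. Fos, an AP-1 gene of the same early response, was at 24.5, 29.7 and 60.8 CPM and at 32.0, 27.2 and 53.7 CPM, again with the third libraries highest and a fold change of -0.04 ± 0.39 (95% interval -0.87 to 0.78). Of 25 genes on the immediate early list, 1 was raised in WT (0.412% of all genes) and 4 were lowered (0.143% of all genes). In Csf2ra-/- 0 were called, as over all genes.

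Igf1 showed a different starting level. This growth factor gene was at 3.70, 3.00 and 4.08 CPM without GM-CSF and 3.08, 2.33 and 2.36 CPM with it in Csf2ra-/-, next to 17.2, 20.5 and 19.3 CPM in untreated WT and 3.49, 1.64 and 5.14 CPM in WT with GM-CSF. All 6 Csf2ra-/- libraries were thus at the level of GM-CSF-treated WT cells. The fold change was -0.45 ± 0.38 (95% interval -1.25 to 0.34) in Csf2ra-/- and -2.49 ± 0.34 in WT, with a difference of 2.04 ± 0.51 that was not called (edgeR's quasi-likelihood test, adjusted p = 0.287). Tmem26, a membrane protein gene, and Slc37a2, a sugar-phosphate carrier gene, had the same layout: 0.617 to 1.55 and 2.47 to 4.30 CPM over the 6 libraries, against 5.23 to 8.08 and 9.15 to 15.5 CPM in untreated WT. Without GM-CSF these genes were within or below the range of the treated WT libraries, whereas Egr1 was above it. In bulk libraries fewer cells of a type and less RNA per cell cannot be told apart.

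**Figure D2:**
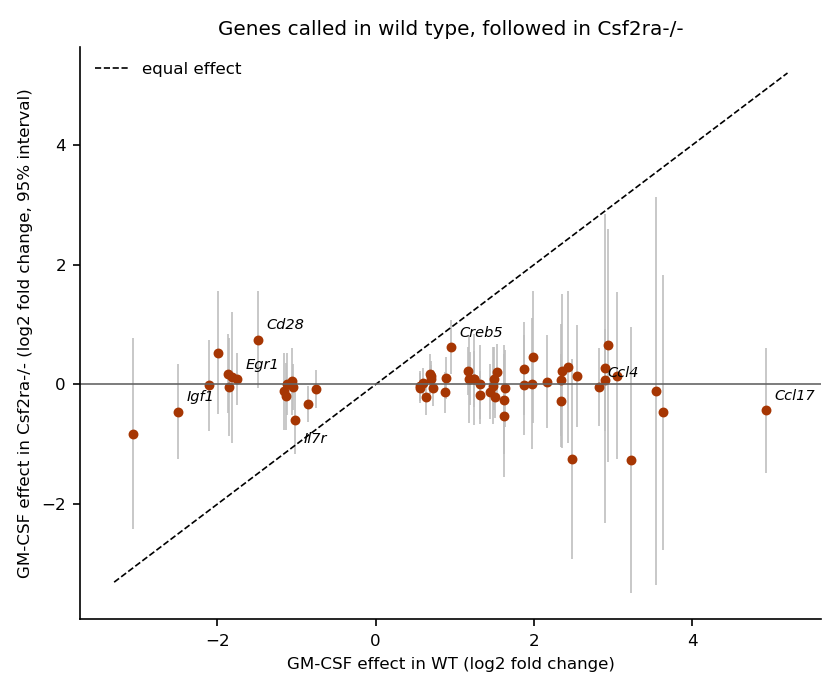
GM-CSF effect in Csf2ra-/- (vertical axis, log2 fold change with its 95% interval) against the effect in WT (horizontal axis, log2 fold change) for the 63 of 66 WT-called genes with an interval. Points lie along 0 and not along the dashed line of equal effects; Creb5 and Il7r are the genes whose interval includes the WT estimate.

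Of the 66 genes, 3 had an unadjusted p under 0.05 in Csf2ra-/- (4.55%), close to the 4.47% of all genes tested. A share this near to that of all genes does not set the 3 apart as a remaining response. By direction they were 1 of 49 raised genes (2.04%), against 1.65% of all genes higher, and 2 of 17 lowered genes (11.8%). Of all genes 2.82% were lower at that limit, and the share of the lowered genes rests on 2 genes. Each of the 3 had the sign it had in WT. In a fit of the Csf2ra-/- groups by themselves, 0 of the raised and 0 of the lowered genes it tested had an unadjusted p under 0.05. Creb5, which encodes a CREB-family transcription factor, was at 1.97, 2.06 and 2.31 CPM without GM-CSF and 4.11, 3.46 and 2.22 CPM with it. GM-CSF replicates 1 and 2 lay above all untreated libraries and replicate 3 among them. Its fold change of 0.63 ± 0.22 compares with 0.96 ± 0.20 in WT, where libraries went from 3.07 to 4.05 CPM up to 6.52 to 7.45 CPM. The unadjusted p was 0.00958 and the adjusted p 0.999 (edgeR's quasi-likelihood test), and the interval from 0.17 to 1.08 includes the WT estimate.

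Il7r, a receptor gene of interleukin-7, was at 3.45, 3.48 and 1.66 CPM without GM-CSF and 1.73, 2.03 and 1.85 CPM with it. The third untreated library lay below all 3 GM-CSF libraries, so the groups overlapped, and the fold change of -0.59 ± 0.28 stood against -1.01 ± 0.23 in WT. Cd300ld, the gene of an activating receptor of the CD300 family, was at 12, 12.3 and 11.2 CPM without GM-CSF and 11.1, 8.35 and 8.79 CPM with it. Its groups did not overlap by a margin of 11.2 to 11.1 CPM, and the fold change of -0.32 ± 0.14 was smaller than the -0.86 ± 0.14 of WT. Neither gene was called (edgeR's quasi-likelihood test, adjusted p = 0.999 for each), and for none of Creb5, Il7r and Cd300ld was the difference between the genotypes called (adjusted p of 0.904, 0.896 and 0.834).

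Groups without overlap were about as frequent among the 66 as over all genes. GM-CSF libraries all lay on one side of the untreated ones for 3 of the 66 genes (4.55%), next to 466 of all 11885 (3.92%), of which 228 were above (1.92%) and 238 below (2.0%). The 3 were Cd300ld, Tlr2 and Itgax, each with the sign it had in WT. Tlr2, a receptor gene for bacterial lipoproteins, was at 2.59, 2.41 and 2.60 CPM without GM-CSF and 2.70, 2.63 and 2.73 CPM with it. Itgax, the gene of CD11c, was at 25.8, 25.2 and 25.3 CPM and at 31.5, 25.9 and 26.5 CPM. Gaps this narrow gave fold changes of 0.09 ± 0.23 and 0.14 ± 0.12, against called rises of both genes in WT.

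Receptor and signalling genes gave no call. The shared chain genes Csf2rb and Csf2rb2, near-identical copies whose reads may be split between them, were at 2400 to 3460 and 1190 to 1730 CPM. Il5ra, the IL-5 chain, was at 91.3, 118 and 59.9 CPM without GM-CSF and 112, 103 and 58.0 CPM with it, with the third libraries lowest. Of the 5 receptor chain genes, 0 were called in either genotype, and their fold changes in Csf2ra-/- ran from 0.02 to 0.26. Csf2ra itself had the highest, 0.26 ± 0.14 (95% interval -0.04 to 0.56).

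STAT5 targets and feedback inhibitors, 17 genes, had 0 calls in Csf2ra-/-, as all genes did, and a median of 0.07. They had 1 call in WT, where 0.555% of all genes were called. Cish, whose product binds the shared chain and damps STAT5, was at 256, 344 and 354 CPM without GM-CSF and 326, 365 and 376 CPM with it in Csf2ra-/-. The groups overlapped, and the fold change of 0.16 ± 0.11 (95% interval -0.07 to 0.39) sat beside 0.29 ± 0.11 in WT, where it was not called either. Ccnd2, the cyclin D2 gene and the one call in WT at 0.70 ± 0.11, was at 37.4, 39.8 and 35.8 CPM and at 41.3, 38.9 and 40.8 CPM. Its interval in Csf2ra-/-, -0.12 to 0.32, left out the WT estimate, while the difference of -0.60 ± 0.15 was not called (edgeR's quasi-likelihood test, adjusted p = 0.263). Socs2, another STAT5-induced inhibitor gene, was at 51.2 to 70.9 CPM untreated and 50.7 to 59.3 CPM with GM-CSF.

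All 24 pathway lists had 0 calls in Csf2ra-/-, which follows from the 0 calls over all genes. Genes of antigen presentation on MHC class II had 0 of 8 fold changes above 0 and a median of -0.26, next to -0.01 over all genes, and 0 of the 8 had an unadjusted p under 0.05. Their sum was at 142 to 283 CPM in Csf2ra-/- and 410 to 932 CPM in WT. H2-Ab1, a class II beta chain gene, was at 52.2, 33.3 and 116 CPM without GM-CSF and 34.7, 39.0 and 103 CPM with it, with the third library of each group highest. Ctss, a protease gene that trims the invariant chain, was at 37.0, 19.1 and 25.8 CPM and at 26.2, 12 and 22.5 CPM.

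Eosinophil granule genes had a median of -0.28 over 6 tested genes, of which 3 had an unadjusted p under 0.05 (background 4.47%). Fold changes in Csf2ra-/- also moved with transcript length, and of 10 bins of genes the one with the shortest transcripts had a median of -0.18. The part of length in the medians of the granule and class II lists was not tested. Prg2 was at 65200, 41000 and 45500 CPM without GM-CSF and 42000, 39100 and 41100 CPM with it, and Prg3, its homologue, at 2660, 1820 and 1710 CPM and at 1630, 1650 and 1520 CPM. For both genes untreated replicate 1 was far above the other 5 libraries, which lay close together. That library was also the shallowest of the 6 and had 13.8% of its counts in its 10 most abundant genes, against 10.9 to 11.8% in the others. Neither gene was called, with fold changes of -0.31 ± 0.12 and -0.37 ± 0.13 (edgeR's quasi-likelihood test, adjusted p = 0.999 for Prg2). Ear6, also at an unadjusted p under 0.05, had another layout, at 12400, 10600 and 12200 CPM without GM-CSF and 10500, 9800 and 10100 CPM with it. Its groups did not overlap, untreated replicate 3 was close to untreated replicate 1, and the fold change was -0.22 ± 0.10. It was not called (edgeR's quasi-likelihood test, adjusted p = 0.999). The part of untreated replicate 1 in the values of these genes was not tested gene by gene.

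Kif1a, a kinesin motor gene, was the gene with the smallest p in Csf2ra-/- and rests on single libraries. It had 2, 9 and 54 counts in the untreated and 1, 1 and 0 in the GM-CSF libraries of Csf2ra-/- cells, and 6, 1 and 2 counts against 33, 17 and 21 in WT. Its highest Csf2ra-/- library, untreated replicate 3, held most of the untreated counts. The fitted fold change was -4.76 ± 0.98 (edgeR's quasi-likelihood test, adjusted p = 0.491) and -3.03 without that library (adjusted p = 0.61). The difference from WT, -7.43 ± 1.23, was called (adjusted p = 0.00797); without the third libraries it was -5.24 (adjusted p = 0.0875).

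Among genes with a mean of at least 5 CPM over the 6 libraries and no predicted model as a name, the 16 of smallest p followed. They were 8 in each direction, and each had an adjusted p of 0.999 in edgeR's quasi-likelihood test. The higher ones were Ttyh3, Rps6kl1, Ints1, Plekhg5, Tnrc18, Atn1, Pcnx3 and Rexo1, with fold changes from 0.38 to 0.69 on the log2 scale. The lower ones were Washc3, Mterf4, Polr2h, Cops3, Txndc17, Magoh, Eif3m and Srp9, from -0.57 to -0.30. Ints1, a subunit gene of the Integrator complex, was at 47.9, 48.9 and 49.9 CPM without GM-CSF and 61.0, 77.0 and 62.7 CPM with it. Magoh, a gene of the exon junction complex, was at 37.7, 24.3 and 22.9 CPM and at 23.5, 17.2 and 15.8 CPM, where the groups overlapped. Below the limit of 5 CPM, Tubb2b had a larger fold change of -3.8 (edgeR's quasi-likelihood test, unadjusted p = 0.00212, adjusted p = 0.999). It was at 8.58 CPM in untreated replicate 3 and at 0.0739 to 0.324 CPM in the other libraries.

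Transcript length moved with these fold changes. Over 9316 genes of at least 5 CPM the Spearman correlation of fold change and transcript length, across genes, was 0.50 in Csf2ra-/- and -0.17 in WT. In 3 equal bins of genes by length, 23.5% of the shortest, 49.7% of the middle and 72.5% of the longest genes had a fold change above 0. The genes with an unadjusted p under 0.05 had a median length of 4560 nt where higher and 2062 nt where lower with GM-CSF, against 3339 nt over all genes tested. A per-library correction for length and GC content, chosen after seeing the data, gave 0 calls and 375 genes at an unadjusted p under 0.05.

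**Figure D3:**
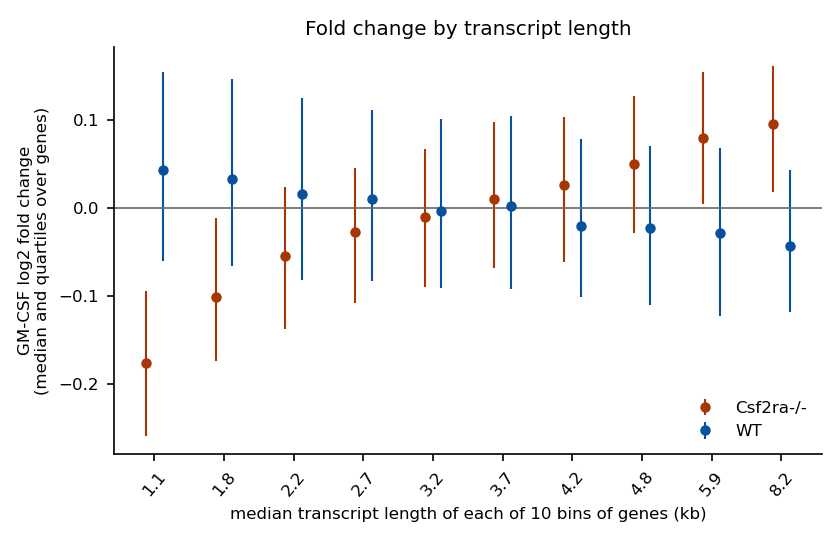
GM-CSF log2 fold change (vertical axis, median and quartiles over genes) in 10 equal bins of genes by transcript length (horizontal axis, median length in kb), for Csf2ra-/- and WT. The Csf2ra-/- medians climb from -0.18 in the bin of shortest transcripts to 0.10 in the longest, and the WT medians run from 0.04 to -0.04.

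The same trend appeared in single libraries. The correlation of a library's deviation from the 6-library median with transcript length was -0.60, 0.57 and -0.40 in untreated replicates 1, 2 and 3 and 0.33, 0.35 and -0.14 in GM-CSF replicates 1, 2 and 3. Untreated replicate 2 was thus nearest to GM-CSF replicates 1 and 2 in this respect and farthest from the other untreated libraries. Without it, edgeR called 29 genes, 13 higher with a median length of 5494 nt and 16 lower with a median of 1133.5 nt. In that fit 2542 genes had an unadjusted p under 0.05, against 531 with all libraries. Polr2a, which encodes the largest subunit of RNA polymerase II, was at 122, 244 and 148 CPM without GM-CSF and 210, 218 and 195 CPM with it, and its fold change went from 0.28 with all libraries to 0.62. Chchd2, a mitochondrial protein gene, was at 190, 72.1 and 110 CPM and at 88.6, 79.1 and 94.4 CPM, and went from -0.50 to -0.77. In both genes the library left out was at or past the GM-CSF level. The part of length in these 29 calls was not tested.

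The 6 libraries differed among themselves mostly along lines other than treatment. Of 9329 genes, 748 (8.02%) had a range of at least 2-fold over the 6 libraries, with a median range of 0.55 on the log2(CPM + 1) scale. The first principal component held 54.3% of the variance, with the third libraries at one end (loadings 0.57 and 0.45) and untreated replicate 2 and GM-CSF replicates 1 and 2 at the other (-0.50, -0.34 and -0.30). The second held 32.9% and set untreated replicate 1 apart (-0.87). That library was the farthest from the median for 3448 genes (37.0%). Pearson correlations of log2(CPM + 1) were highest for GM-CSF replicates 1 and 2 (0.9952) and for the third libraries of both groups (0.9947), and lowest for untreated replicates 2 and 3 (0.9608). The third libraries were thus nearer to each other than to any library of their own group. No pair within a group agreed within sampling noise, with a chi-square per degree of freedom of 5.26 to 64.8.

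**Figure D4:**
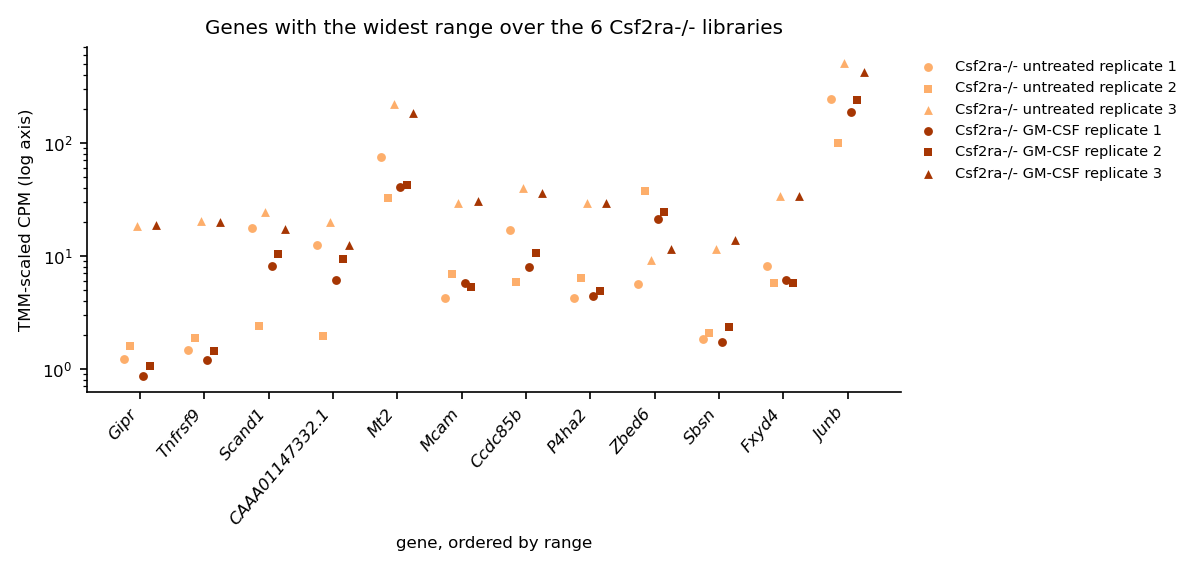
TMM-scaled CPM (log axis) in the 6 Csf2ra-/- libraries of the 12 genes with the widest range, ordered by range. Triangles mark the third libraries, which lie together and apart for Gipr, Tnfrsf9, Mt2, Mcam, P4ha2, Sbsn and Fxyd4; for Scand1, CAAA01147332.1, Zbed6 and Junb untreated replicate 2, a light square, is at an end.

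Of the 12 genes with the widest range, Gipr and Tnfrsf9 had the widest, with the third libraries high, and Scand1 and CAAA01147332.1 the next, with untreated replicate 2 lowest. Scand1 was at 17.5, 2.41 and 24.5 CPM without GM-CSF and 8.05, 10.3 and 17.4 CPM with it. Gipr, a receptor gene for the gut hormone GIP, was at 1.23, 1.59 and 18.3 CPM without GM-CSF and 0.865, 1.05 and 18.9 CPM with it. Tnfrsf9, the gene of the costimulatory receptor 4-1BB, was at 1.48, 1.88 and 20.5 CPM and at 1.19, 1.43 and 20.0 CPM. P4ha2, which encodes a collagen prolyl hydroxylase subunit induced by low oxygen, was at 4.19, 6.36 and 29.2 CPM and at 4.38, 4.89 and 29.4 CPM. In Gipr, Tnfrsf9 and P4ha2 the third libraries agreed closely across treatment and the other 4 were low. Untreated WT libraries were at 5.29 to 9.21 CPM for Gipr, 5.88 to 11.7 CPM for Tnfrsf9 and 17.8 to 35.9 CPM for P4ha2, between the sets or nearer to the third libraries. The third libraries were at least 2-fold above all others for 42 genes (0.45%) and at least 2-fold below for 2, Slc7a11 and Camkk1. Slc7a11, the cystine transporter gene, was at 294, 334 and 100 CPM without GM-CSF and 376, 296 and 111 CPM with it. Untreated WT held 134 to 202 CPM of Slc7a11 and 16.9 to 20.4 CPM of Camkk1, between the third libraries and the other 4.

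Hypoxia and glycolysis genes were high in the third libraries. Of 17 list members at 5 CPM or more, 11 lay above the other 4 libraries in both (background 17.6%) and 0 below. Ndrg1, a stress-response gene induced by low oxygen, was at 165, 180 and 585 CPM without GM-CSF and 139, 169 and 565 CPM with it. Vegfa, the vascular growth factor gene, was at 102, 119 and 243 CPM and at 108, 118 and 244 CPM, and Bnip3, a mitophagy gene, at 432, 360 and 778 CPM and at 327, 309 and 671 CPM. The GM-CSF fold changes of these genes were -0.10 ± 0.57, 0.01 ± 0.34 and -0.27 ± 0.32. Untreated WT libraries held 423 to 639 CPM of Ndrg1 and 195 to 292 CPM of Vegfa, closer to the third libraries than to the other 4.

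Cell cycle genes were low in the third libraries: 22 of 22 members lay below the other 4 libraries in both, where the background was 22.2%. Summed over the list, the third libraries were at 2310 and 2260 CPM and the other 4 at 2980 to 3130 CPM. WT libraries, with and without GM-CSF, were at 1680 to 2360 CPM. The third libraries thus lay within the WT range and the other 4 above it. Mki67, the gene of a proliferation marker, was at 326, 514 and 276 CPM without GM-CSF and 427, 402 and 290 CPM with it. Mcm5, a gene of the replicative helicase, was at 178, 172 and 120 CPM and at 164, 184 and 122 CPM, and Rrm2, which encodes a subunit of ribonucleotide reductase, at 222, 206 and 153 CPM and at 203, 202 and 144 CPM. The steps were below 2-fold throughout, and none of the 22 genes had an unadjusted p under 0.05 for GM-CSF. Ribosome biogenesis genes lay below in the third libraries for 17 of 24 members, with Dkc1, a pseudouridine synthase gene, at 49.6, 48.2 and 33.9 CPM and at 49.4, 45.4 and 29.0 CPM, and above for 1. Cholesterol and lipid genes were below for 11 of 19 and above for 0; Idi1, an isoprenoid synthesis gene, was at 17.6, 16.7 and 9.82 CPM and at 16.6, 16.9 and 8.65 CPM.

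**Figure D5:**
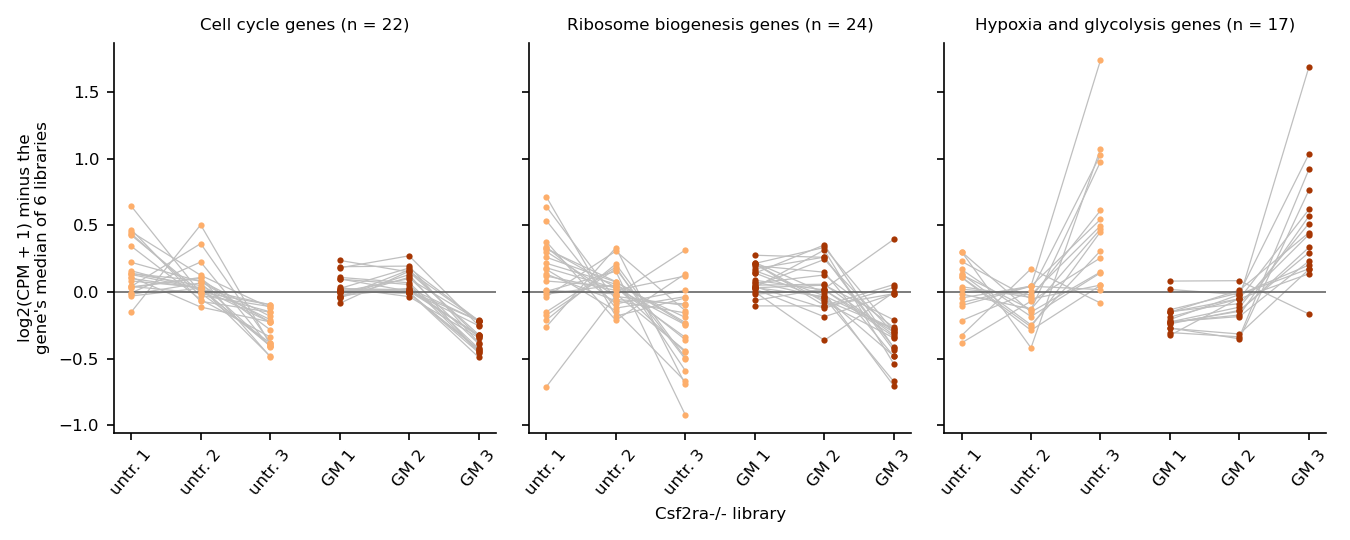
Each gene's log2(CPM + 1) minus its median over the 6 Csf2ra-/- libraries (vertical axis) in untreated (untr.) and GM-CSF (GM) replicates 1 to 3, for cell cycle, ribosome biogenesis, and hypoxia and glycolysis genes, with lines joining the libraries of a group. The third libraries are lowest for 22 of 22 cell cycle genes and highest for 11 of 17 hypoxia and glycolysis genes.

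Stress and early response genes included members that were high in the third libraries. Of 15 integrated stress response genes 8 were above in both (17.6% of all genes of at least 5 CPM) and 4 below (22.2% of all such genes). Ddit3, which encodes the stress factor CHOP, was at 27.0, 22.1 and 77.9 CPM without GM-CSF and 22.6, 22.8 and 79.1 CPM with it, and Trib3, its target, at 24.8, 19.4 and 57.7 CPM and at 18, 23.5 and 56.9 CPM. Of 18 immediate early genes 9 were above and 5 below, and the shares below on both lists were near that of all genes. Junb, an AP-1 gene, was at 245, 98.9 and 512 CPM and at 186, 238 and 424 CPM, and Jun at 4.07, 3.53 and 13.3 CPM and at 4.49, 4.36 and 12.4 CPM. STAT5 targets were above for 9 of 15 and below for 0, as with Pim2, a survival kinase gene, at 195, 154 and 319 CPM and at 149, 166 and 304 CPM. Mt2, the gene of a zinc-binding metallothionein, was at 75.2, 32.7 and 222 CPM and at 40.9, 42.5 and 182 CPM. Each of these genes had its highest library in each group at replicate 3, and none was called for GM-CSF.

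Markers of other cell types varied from list to list, and their part in the spread was not tested. The summed monocyte and macrophage markers were at 2800, 2520 and 2210 CPM without GM-CSF and 2460, 2360 and 2120 CPM with it, carried by Ly6c2 and Adgre1, and were lowest in the third libraries. The summed neutrophil markers were at 1720, 1380 and 1520 CPM and at 1390, 1330 and 1350 CPM, highest in untreated replicate 1. Of 20 monocyte and macrophage markers 1 had no count in all 6 libraries, of 12 mast cell and basophil markers 3 and of 12 lymphoid markers 2. The sum of 4 Y-linked genes was at 148 to 185 CPM in all 6 libraries and at 52.5 to 178 CPM in the WT libraries. Their median log2 fold change with GM-CSF was 0.12 in Csf2ra-/- and 0.49 in WT, with 0 called in either. The part of donor sex in the WT values was not tested.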

How the data were processed

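The deposited files hold raw counts of reads for each Ensembl gene, per the file headers. The submitters' processing notes name STAR, featureCounts and GRCm38.p6. Versions, the strand setting and the treatment of multiply matching reads are details not given in the sources used here. Overlapping genes and near copies (Csf2rb and Csf2rb2, the Bcl2a1 and Ear genes) are therefore uncertain. Each file listed 25746 genes; 34 had no symbol in GENCODE.

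Counts of all 24 libraries (8 groups of 3) were fitted in 1 model of group means with edgeR 4.0.16 on R 4.3.3: TMM factors 0.939 to 1.031, filterByExpr (11885 genes), robust quasi-likelihood tests, Benjamini-Hochberg adjustment, common biological coefficient of variation 14.1%. SE and 95% intervals are on the log2 scale; 3 counts set the limit for a count of 0. Contrasts were GM-CSF against untreated in Csf2ra-/- and in WT, which share no library, and their difference. Spread was described on log2(CPM + 1). The fit was tested on simulated counts. Alternatives used limma 3.58.1, DESeq2 1.42.0, other filters and scaling, and fits without single libraries.

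Genes named are those of smallest p in Csf2ra-/- (8 each way, at least 5 CPM, no predicted models), the 12 largest rises and 8 largest falls called in WT (at least 5 CPM in a WT group, WT groups not overlapping, no predicted models), all genes called in the difference, the receptor and STAT5 lists, called or abundant members of other lists, and the 12 genes of widest range. Creb5, Il7r, Cd300ld, Tlr2, Itgax, Slc7a11, Camkk1, Polr2a, Chchd2, Tubb2b, Rbp4 and Alpk2 were chosen after their values were seen. So were list members shown for the spread. Members and lists were chosen with earlier results of these data known. Promoter bases are from RefSeq (GRCm38.p6).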

Additional observations from a re-analysis of the deposited data

Results flagged for a closer look

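For 7 genes the GM-CSF effect in Csf2ra-/- differed from that in WT by a test of the difference itself (edgeR's quasi-likelihood test, adjusted p under 0.05, 7 of 11885 genes, 0.0589%). The differences, Csf2ra-/- minus WT on the log2 scale, were -5.36 for Ccl17, -2.87 for Ccl4, -1.71 for Car4, -2.82 for Clec4n, -1.49 for Spp1, 1.84 for Egr1 and -7.43 for Kif1a. Of these genes 6 were also called in WT, where their large effects helped to select them. Kif1a was not called in WT (2.66 ± 0.74), and its difference joins a rise there to a fitted fall in Csf2ra-/- that rests on 54 counts in untreated replicate 3.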

How the results depend on the processing

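No paired analysis was possible because the labels give no replicate numbers that the groups share; spread that libraries share across the groups, as the third ones do, therefore counts as error. The count of 0 genes called in Csf2ra-/- held under every alternative run except the fit without untreated replicate 2, so leaving out 1 library gave 0 to 29 calls. Fits that left out 1 library had 222 to 2542 genes at an unadjusted p under 0.05, against 531 with all libraries (edgeR's quasi-likelihood test). Over all alternatives the lowest adjusted p ran from 0.0454 to 1. The 66 calls in WT became 112 with DESeq2 and 31 to 61 when 1 library was left out, fewest without WT untreated replicate 2; 35 were called without WT untreated replicate 3 or WT GM-CSF replicate 1. The 7 calls in the difference became 27 with DESeq2, 3 with only the groups compared, 3 without the third Csf2ra-/- libraries of both groups, and 4 to 12 when 1 library was left out: 4 without Csf2ra-/- untreated replicate 1, WT untreated replicate 2 or WT untreated replicate 3, and 12 without Csf2ra-/- untreated replicate 2. The Csf2ra-/- median of the genes raised in WT ran from -0.054 to 0.102 when 1 library was left out, and that of the lowered genes from -0.162 to 0.068; neither sign was kept throughout. Single differences kept their direction; the adjusted p over all alternatives reached at most 0.0225 for Car4, 0.0232 for Ccl17, 0.0505 for Ccl4, 0.264 for Clec4n, 0.26 for Egr1, 0.26 for Kif1a and 0.345 for Spp1. Alone without untreated replicate 2, Kif1a was called in Csf2ra-/- (-5.18, adjusted p = 0.0454). The correlation of the third libraries was 0.79 to 0.87 under other level limits and a pseudocount of 0.25, chosen after seeing the data. The cause of each change was not tested. With 3 libraries a group, intervals reached a median of 0.66 to either side for the genes called in WT, and changes smaller than that could not be resolved for many of them.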
